A study of Mus musculus with 2 samples.

Results

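Weak but repeated sites of open chromatin were examined in the adult mouse cerebellum by DNase-seq, in which nuclei are treated with the nuclease DNase I and the cut ends are sequenced. The tissue was whole cerebellum of male B6CASTF1/J mice, 8 to 10 months old, which are F1 hybrids of B6 and CAST. There were 2 libraries in 1 group, replicate 1 and replicate 2, and each drew on its own pool of 2 biosamples. The labels do not say whether the pools had animals in common, so the spread between libraries may be technical. For each library the authors deposited a longer peak list, with 99710 and 114935 peaks in replicates 1 and 2, and a stricter list of 61776 and 71141 peaks. A weak reproducible peak was taken from the longer list of a library, overlapped no stricter peak of either library, and overlapped a longer-list peak of the other library. This gave 9635 peaks in replicate 1 (9.66% of its longer list) and 9631 in replicate 2 (8.38%). Joined where they overlapped, they made 9844 regions, of which 9093 held such a peak of both libraries. They were set beside the shared stricter peaks, stricter in both libraries (46923 in replicate 1 and 47021 in replicate 2), and the library-only weak peaks, which no peak of the other library overlapped (19694 and 30864).

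An accessible site is a stretch where nucleosomes have been displaced, usually by transcription factors, so that DNA is exposed to enzymes. In a whole tissue its signal averages over all cells. A site open in few cells and a site slightly open in many cells give the same height, and these cannot be told apart here. Cerebellar DNA comes mostly from granule cells, the small excitatory neurons that outnumber every other cell of the organ. Purkinje cells, interneurons, Bergmann glia, oligodendrocytes, microglia and vessel cells supply the rest. All 20 genes of a granule cell list had a stricter peak of either library close to a start, Atoh1 in replicate 1 alone. Close means 1 kb or less from a transcription start site (TSS).

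The regions are best seen in their sequence, given here as the B6 reference of mm10 on the plus strand. The first lay at the start of an astrocyte marker gene that no stricter peak reached, and the next is the printed stretch with the most footprints, which are short runs protected from cutting. Capitals mark bases inside footprints of both libraries. Agt encodes angiotensinogen, a product of astrocytes, and Adgrl1 a latrophilin, an adhesion receptor of synapses.
Agt, 153 bp upstream of a start, chr8:124569791-124569926: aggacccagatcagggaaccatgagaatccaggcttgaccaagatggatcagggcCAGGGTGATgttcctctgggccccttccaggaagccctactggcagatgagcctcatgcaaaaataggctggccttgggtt
Adgrl1, intron, 1188 bp downstream of a start, chr8:83901752-83902051: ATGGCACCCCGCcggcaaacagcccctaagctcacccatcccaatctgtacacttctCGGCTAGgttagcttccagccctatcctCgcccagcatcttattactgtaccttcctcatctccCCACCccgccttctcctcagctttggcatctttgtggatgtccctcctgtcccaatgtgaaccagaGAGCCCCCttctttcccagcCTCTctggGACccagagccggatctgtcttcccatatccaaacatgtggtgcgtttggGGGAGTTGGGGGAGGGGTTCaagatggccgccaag
Mag encodes a myelin glycoprotein of oligodendrocytes. Its region was chosen after its values were seen and held no position footprinted in both libraries, so it has no capitals.
Mag, 95 bp upstream of a start, chr7:30914901-30915034: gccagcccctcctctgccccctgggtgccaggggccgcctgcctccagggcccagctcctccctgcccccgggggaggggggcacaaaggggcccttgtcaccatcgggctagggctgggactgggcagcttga
The last 4 were also chosen after their values were seen, as the strongest distal regions with a motif match under a footprint of both libraries. Capitals now mark the match: to the motif of CTCF, the insulator protein, in the first pair, and to the full palindrome of the nuclear factor I proteins in the second. Each is named for the gene with the nearest start.
Tjp3, intron, chr10:81289436-81289594: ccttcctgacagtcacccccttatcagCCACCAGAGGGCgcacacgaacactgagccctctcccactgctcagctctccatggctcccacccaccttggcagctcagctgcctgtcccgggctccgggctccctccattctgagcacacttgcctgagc
Diras2, intergenic, chr13:52535641-52535800: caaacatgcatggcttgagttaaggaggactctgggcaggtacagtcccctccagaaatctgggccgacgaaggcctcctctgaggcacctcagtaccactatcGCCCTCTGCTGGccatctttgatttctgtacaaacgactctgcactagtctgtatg
Ank2, intron, chr3:127210632-127210817: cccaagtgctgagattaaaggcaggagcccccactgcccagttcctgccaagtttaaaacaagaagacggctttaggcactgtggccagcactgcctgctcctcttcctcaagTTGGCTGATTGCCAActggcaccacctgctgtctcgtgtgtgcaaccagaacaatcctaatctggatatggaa
Snrk, intergenic, chr9:122173684-122173865: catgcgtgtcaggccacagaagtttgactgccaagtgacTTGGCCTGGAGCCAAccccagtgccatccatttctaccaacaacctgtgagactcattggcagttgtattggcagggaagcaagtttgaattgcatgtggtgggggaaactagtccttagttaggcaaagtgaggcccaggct

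The weak reproducible peaks were selected on the authors' calls, so their low signal is a description with no test. Signal is the authors' value per peak, a coverage measure of unstated scale. Its median was 0.528 in replicate 1 and 0.417 in replicate 2, against 1.83 and 1.42 in shared stricter peaks and 0.385 and 0.297 in library-only weak peaks. Signal moved in whole steps of 0.00714 and 0.00632, so the median weak reproducible peak held 74 and 66 steps. If a step is 1 cut, counting error at that median was 11.6% and 12.3%. The classes overlapped widely. Of the weak reproducible peaks 58.0% and 60.7% lay above the 10th percentile of all stricter peaks of their library (0.464 and 0.341). Only 350 and 648 lay above the stricter median (3.63% and 6.73%).

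**Figure D1:**
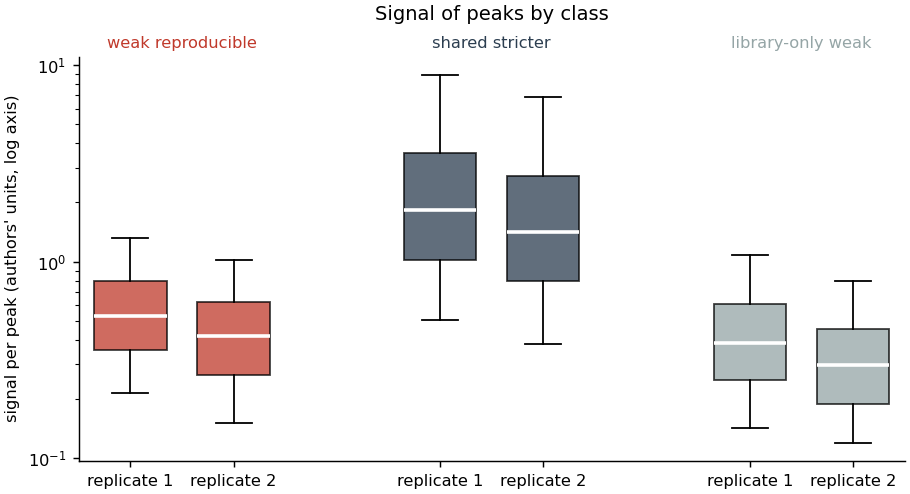
Signal per peak on a log axis, in the authors' units, for weak reproducible, shared stricter and library-only weak peaks of each library. Boxes span the quartiles with the median as a white line, and whiskers run from the 5th to the 95th percentile; the weak reproducible medians of 0.528 and 0.417 lie between those of the other classes.

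The stricter list was tied to the deposited false discovery rate (FDR) of the local cut rate, so the FDR of these sites is part of how they were chosen. The lowest FDR inside a weak reproducible peak had a median of 0.00806 in replicate 1 and 0.00579 in replicate 2. A base under 0.001 was held by 812 (8.43%) and 1144 (11.9%) of them, so that threshold alone did not set the stricter list. The 100 members just outside the threshold, with an FDR of 0.001 to 0.00107 in replicate 1, had a median signal of 0.585 and a width of 212.5 bp. The 100 stricter peaks just inside it, at 0.000809 to 0.000991, had a signal of 0.542 and a width of 58 bp. In replicate 2 the members just outside had 0.506 and 206.5 bp, and the stricter peaks just inside 0.433 and 54.5 bp. The 2 lists were cut at different thresholds, so nothing is read from the contrast in width.

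Signal was closely related between the libraries. Over the 9093 regions with a peak of both libraries, log2 signal had a Pearson correlation of 0.919 and a Spearman correlation of 0.920. The lowest FDR of these regions was hardly related between the libraries, with a Spearman correlation of 0.089. These values are a description over regions of the same 2 libraries. The rule asks for a call in both libraries and a stricter peak in neither, which limits the range of signal and FDR. The median log2 ratio of replicate 2 over replicate 1 was -0.39 with an SD of 0.33 over regions, and 46 regions differed from it by more than 2-fold. In 42110 pairs of shared stricter peaks the correlation was 0.925 and the SD 0.49. Of the weak peaks free of any stricter peak, 32.9% of 29329 in replicate 1 and 23.8% of 40495 in replicate 2 were reproducible. Of the members, 5591 and 5582 overlapped a peak of the other library over at least 50% of both.

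Fewer weak reproducible than shared stricter peaks lay at starts, and more lay in introns. A peak centred within 1 kb of a TSS was called a promoter peak. Promoters held 26.1% ± 0.353 of weak reproducible peaks, 45.4% ± 0.118 of shared stricter peaks and 22.2% ± 3.96 of library-only weak peaks (SD, n = 2 libraries). Introns held 40.1% ± 0.069, 27.8% ± 0.0223 and 39.1% ± 4.73 of the same classes. Intergenic stretches held 25.8% ± 0.0878, 21.9% ± 0.0774 and 30.9% ± 1.84, and exons 7.94% ± 0.196, 4.95% ± 0.063 and 7.80% ± 2.62. Both libraries gave these differences from the stricter peaks. Of library-only weak peaks, promoters held 25% in replicate 1 and 19.4% in replicate 2. Peaks of 1 library are not replicates, and a sign-flip exact permutation test over 2 libraries cannot go below p = 0.5, so all differences are given as values with 95% Wilson intervals for counting error or the spread between libraries.

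The place of these peaks went with their signal. Among peaks of 100 to 149 steps, promoters held 28.4% of weak reproducible and 28.7% of shared stricter peaks in replicate 1, and 30.1% and 35.7% in replicate 2. At 50 to 74 steps the shares were 25.4% and 21.3% in replicate 1 and 26.5% and 27.8% in replicate 2. At 150 to 199 steps they were 32.1% and 35% in replicate 1 and 31.8% and 38.7% in replicate 2. At equal height the promoter shares of both classes thus lay closer together than over all signals, and in replicate 2 the shared stricter peaks were ahead in each of the 4 bands. These bands were chosen after the data had been seen.

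**Figure D2:**
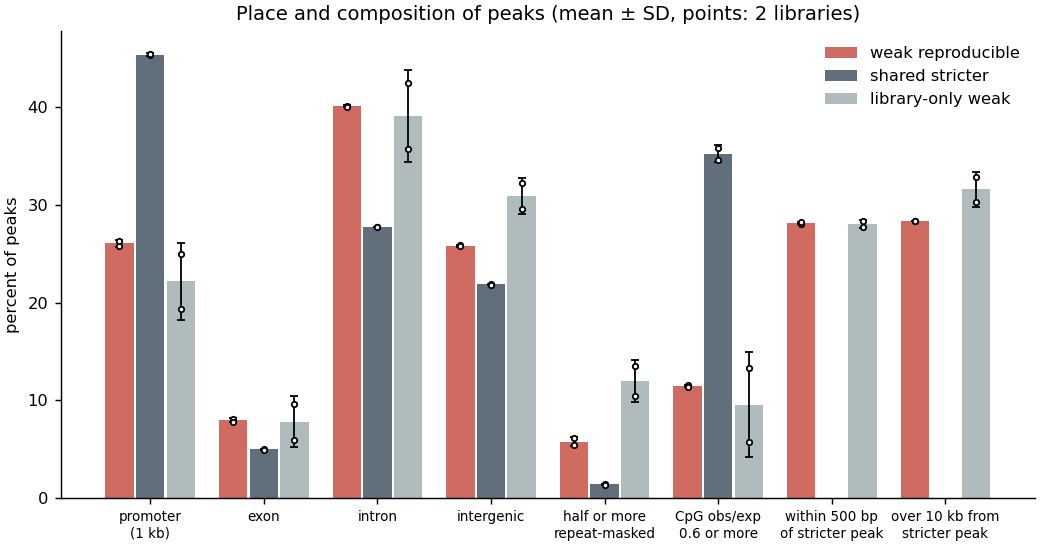
Percent of weak reproducible, shared stricter and library-only weak peaks in each kind of place or composition (bars: mean, error bars: SD, points: 2 libraries). Weak reproducible peaks stand at 26.1% in promoters, against 45.4% of shared stricter peaks, and distance to a stricter peak applies to the weak classes alone.

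Weak reproducible peaks were also poorer in CpG than stricter ones, and more of them lay mostly in repeats. A ratio of observed to expected CpG of 0.6 or more, typical of CpG islands, was found in 11.5% ± 0.114 of them and in 35.3% ± 0.86 of shared stricter peaks. In library-only weak peaks the share was 9.52% ± 5.37. Repeat-masked sequence made up 50% or more of the peak in 5.75% ± 0.468, against 1.38% ± 0.0638 of shared stricter peaks and 12% ± 2.15 of library-only weak peaks. At least 1 repeat-masked base was in 39.9% ± 0.915 of weak reproducible peaks, against 45% ± 2.58 of shared stricter and 43.2% ± 1.34 of library-only weak peaks, an order other than that of the mostly masked peaks. Median GC content over 150 bp was 54.7% and 54% in replicates 1 and 2, against 57.3% and 56.7% in shared stricter and 54.7% and 49.3% in library-only weak peaks. Among distal peaks it was 54% and 53.3% in the weak reproducible and the shared stricter class alike. Among promoter peaks it was 56.7% and 56%, against 64% and 63.3% in shared stricter ones. The weak reproducible peaks were narrow. Their median width was 138 bp in replicate 1 (range 21 to 1235 bp) and 143 bp in replicate 2, against 220 and 240 bp in shared stricter peaks and 114 bp in library-only weak peaks of each library. They covered 1.45 and 1.53 Mb.

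A stricter peak was often close by. Of the weak reproducible peaks 28.1% ± 0.0963 lay within 500 bp of a stricter peak and 28.3% ± 0.0157 lay more than 10 kb away, while library-only weak peaks had 28.1% ± 0.386 and 31.6% ± 1.79. Those within 500 bp had a median signal of 0.585 and 0.468 in replicates 1 and 2, and those beyond 10 kb 0.350 and 0.253. The FDR did not follow this, with medians of 0.00798 and 0.00576 near and 0.00812 and 0.00539 far. Every chromosome took part. The autosomes ran from 18.3 weak reproducible peaks per 100 shared stricter ones on chromosome 2 to 23.0 on chromosome 12.

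Weak reproducible promoter peaks lay farther from the start than stricter ones. They could overlap no stricter peak, so the choice itself kept them off every start covered by one. The median distance from peak centre to TSS was 387.5 bp in replicate 1 and 384 bp in replicate 2, against 100 and 106 bp in shared stricter and 381 and 515 bp in library-only weak promoter peaks. Within 150 bp of a start lay 29.3% and 29.4% of them, against 58.9% and 57.8% of shared stricter and 26.8% and 17.5% of library-only weak promoter peaks. The median CpG ratio of these promoter peaks was 0.401 and 0.388, against 0.754 and 0.733. Merged, they made 2270 promoter regions, of which 1921 (84.6%) had the start of a coding gene within 1 kb, nearest or not. Of the rest, 94 had the start of a lincRNA nearest. A gene with a stricter TSS peak was in reach of 1734 of the 2270 regions (76.4%, interval 74.6% to 78.1%), and 1244 (54.8%) lay downstream of the nearest start.

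Footprints were found in most weak reproducible peaks, but fewer of them repeated. At least 1 footprint overlapped 72.4% of the peaks in replicate 1 and 64.7% in replicate 2, against 93.2% ± 1.47 of shared stricter and 51.9% ± 4.49 of library-only weak peaks (SD, n = 2). Their density was 8.34 ± 1.03 per kb, against 15.4 ± 0.793 in shared stricter and 6.64 ± 0.759 in library-only weak peaks. The authors called footprints from the same FDR tables, so footprints were not independent of the choice of peaks. A single position footprinted in both libraries was held by 34.1% ± 0.0173 of weak reproducible peaks, against 85.2% ± 0.15 of shared stricter peaks. In library-only weak peaks the share was 0.409% ± 0.189. Of the 9093 regions, 2269 held 1 such footprint, 815 held 2 and 282 held 3 or more. Footprints here had a median length of 9 bp, as in library-only weak peaks, against 12 bp in shared stricter peaks.

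At equal signal the shares of peaks with a footprint came close together. Between 75 and 99 steps, 85.4% of 1795 weak reproducible peaks and 85.7% of 3129 shared stricter peaks of replicate 1 had a footprint. In replicate 2 it was 83.6% of 1614 and 80.3% of 3658. Between 100 and 149 steps the weak reproducible peaks were ahead in both libraries, with 90.8% and 89.6%, against 88.2% and 85.2%. Between 50 and 74 steps they were behind, with 72.9% and 70.3%, against 78.2% and 77.2%. The share with a footprint in both libraries stayed lower at equal signal. Between 100 and 149 steps it was 57.4% and 61.3%, against 72.5% and 74.5% in shared stricter peaks. Library-only weak peaks, which overlap no peak of the other library, had 1.26% and 1.10%. Weak reproducible peaks were also narrower in this band, with medians of 149 and 165 bp, against 189 and 220 bp in shared stricter peaks. An overlap of 1 bp was enough to count as reproducible. The part of width and overlap in the lower share was not tested.

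**Figure D3:**
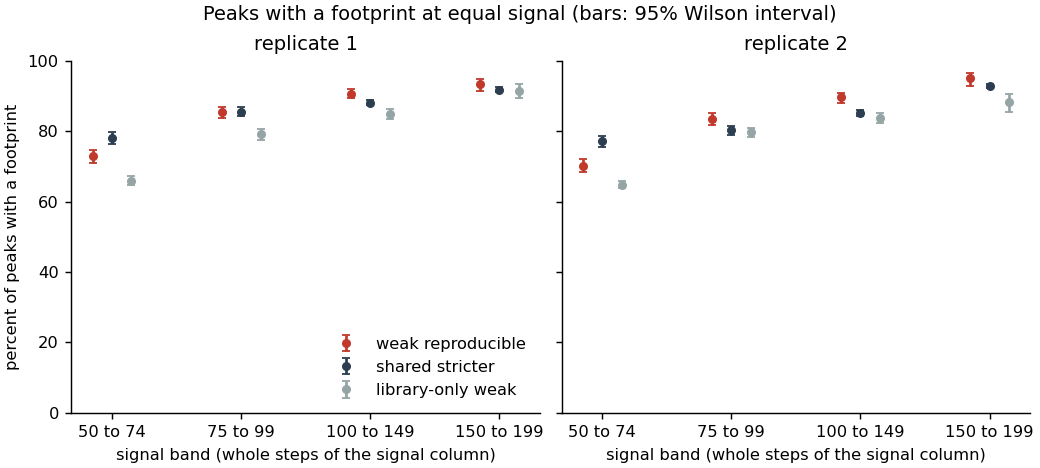
Percent of peaks with a footprint in 4 bands of equal signal (whole steps of the authors' signal), for weak reproducible, shared stricter and library-only weak peaks of each library, with 95% Wilson intervals. In the band of 75 to 99 steps the weak reproducible share is 85.4% in replicate 1 and 83.6% in replicate 2, beside 85.7% and 80.3% of shared stricter peaks.

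Among distal sites CTCF marked the clearest difference in sequence from shared stricter peaks. Motifs were searched as fixed letters on both strands in 150 bp around each peak's middle, N standing for any base. A match is no evidence of binding, and the short motifs overlap within E-boxes and nuclear factor I sites. The CTCF motif CCANNAGNNGGC was in 548 of 7145 distal weak reproducible peaks of replicate 1 (7.67%, interval 7.08% to 8.31%) and 560 of 7094 of replicate 2 (7.89%, 7.29% to 8.54%). In distal shared stricter peaks it was in 16.8% (16.3% to 17.2%) and 16.6% (16.2% to 17.1%). The difference remained at equal signal: between 100 and 199 steps it was in 7.55% and 6.88%, against 14.9% and 19.0%. Where the motif was present in a weak reproducible peak, 61.6% and 43.4% of matches lay under a footprint, against 93.1% and 87.8%. Footprints covered 10.5% and 8.37% of the bases of weak reproducible peaks, against 23.9% and 20.6%. In distal library-only weak peaks the CTCF motif was in 6.24% and 3.89% in replicates 1 and 2. Its scarcity was thus not particular to the weak peaks that were reproducible.

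Over all signals, motifs of the granule cell factors were less frequent too, by smaller margins. CAGATG, the E-box bound by NEUROD and ATOH proteins of granule neurons, was in 19.1% ± 0.117 of distal weak reproducible and 25.3% ± 0.257 of distal shared stricter peaks (SD, n = 2). CCTGCTG, a ZIC motif, was in 13.2% ± 0.142 and 15.7% ± 0.0719, and TTGGCA, the nuclear factor I half-site, in 18.2% ± 0.38 and 20.4% ± 0.226. At 100 to 199 steps the E-box was in 18% and 19.6% of weak reproducible peaks, against 23.6% and 22.6%. At 50 to 99 steps replicate 2 gave 19.1% and 19.9%, with overlapping intervals. For the ZIC motif no such difference was seen at 100 to 199 steps, where it was in 14.6% and 15.1% of weak reproducible peaks, against 14.4% and 15% in replicates 1 and 2. The nuclear factor I half-site was in 17.5% of weak reproducible and 20% of shared stricter peaks of replicate 1 in that band, and in replicate 2 the weak reproducible share was the higher one, 19.6% against 18.3%. Of 34 motifs, 7 were less frequent in distal weak reproducible peaks with intervals apart in both libraries (the others being CATATG of OLIG factors, NRF1 and YY1), 1 was more frequent and 26 had overlapping intervals in at least 1 library. The exception was the full nuclear factor I palindrome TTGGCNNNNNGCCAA, in 24 and 23 weak reproducible peaks (0.336% and 0.324%) and in 32 of 25651 and 33 of 25626 distal shared stricter peaks (0.125% and 0.129%). These are few sites, and within bands of 50 to 99 and 100 to 199 steps the intervals overlapped. In distal library-only weak peaks of replicates 1 and 2 the palindrome was in 0.176% and 0.289%, and CAGATG in 16% and 19.1%. The ZIC motif was in 10.6% and 8.77% of them, and the nuclear factor I half-site in 13.1% and 19.6%.

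At promoters the motifs of housekeeping starts were scarcer than in stricter peaks, as they were in library-only weak peaks. CCGGAAGT of ETS factors was in 0.279% ± 0.06 of promoter weak reproducible peaks and 3.78% ± 0.0386 of promoter shared stricter peaks. GCGCANGCGC of NRF1, a regulator of mitochondrial genes, was in 0.418% ± 0.0899 and 5.48% ± 0.115. TGACGTCA, the cyclic AMP response element, was in 0.258% ± 0.0247 and 2.13% ± 0.0253, and GGGCGGGG of SP and KLF factors in 5.73% ± 0.245 and 17.1% ± 0.64. AGCCAATC of NFY, AAGATGGCG of YY1, GCGTGGGCG of EGR and CACGTG were also lower. In library-only weak promoter peaks of replicates 1 and 2, ETS was in 0.427% and 0.284%, NRF1 in 0.285% and 0.0837%, the cyclic AMP response element in 0.305% and 0.284%, and SP and KLF in 5.82% and 1.51%. Restricted to peaks within 150 bp of a start, ETS was still in 0.34% ± 0.101, against 6.04% ± 0.00411, and NRF1 in 0.749% ± 0.299, against 8.06% ± 0.00581. The weak reproducible counts behind these shares were few. ETS was in 3 of 729 and 2 of 745 peaks of replicates 1 and 2, and NRF1 in 7 and 4. CAGATG ran the other way at promoters, in 12.6% ± 0.115 and 7.83% ± 0.29, and in 10.7% ± 0.165 and 5.63% ± 0.239 within 150 bp. Library-only weak promoter peaks held it in 11.3% and 12.5% in replicates 1 and 2. In all, 11 of the 34 motifs were more frequent in promoter weak reproducible peaks and 8 less frequent with intervals apart in both libraries. The letters CG stood in 0 of those 11, which included TAATCC of OTX and GGAATGT of TEAD factors, and in 7 of those 8. The lower median CpG ratio of these peaks moved with this, and its part in the motif shares was not tested.

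**Figure D4:**
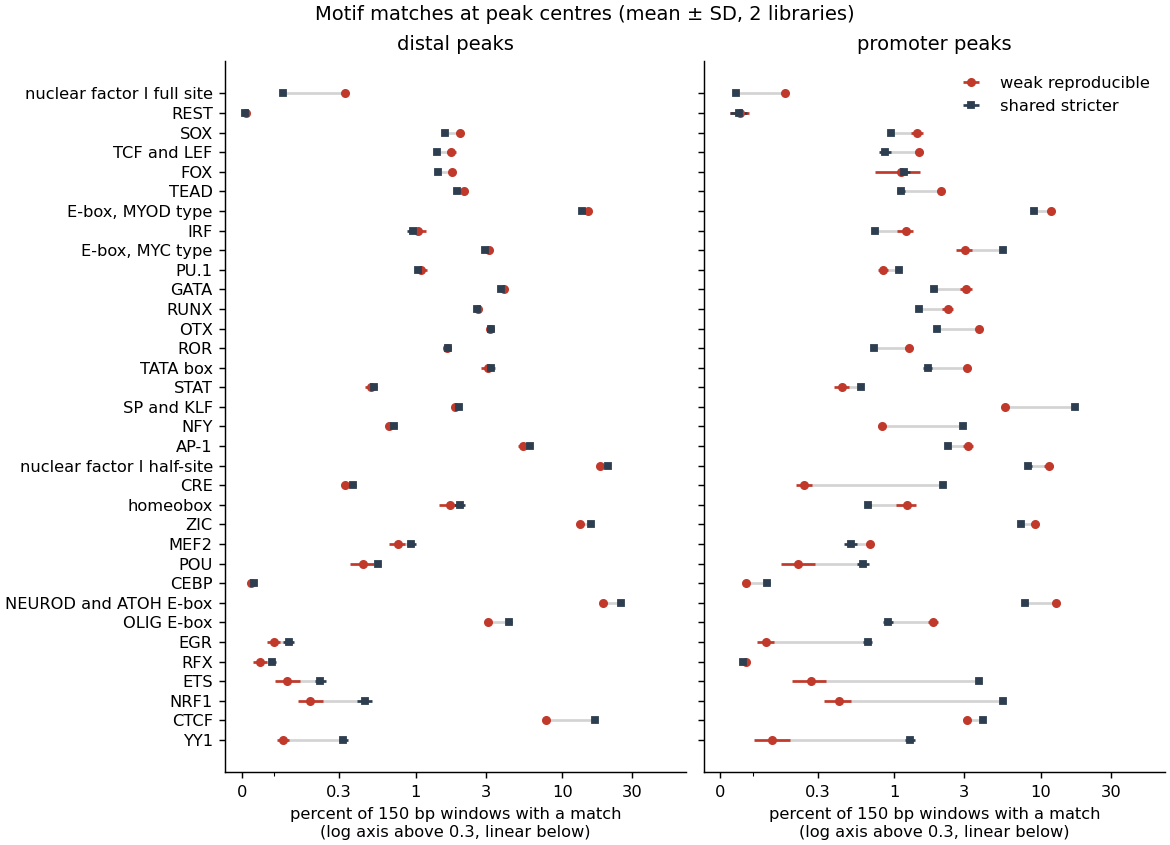
Percent of 150 bp windows with a match to each of 34 motifs in weak reproducible (circles) and shared stricter peaks (squares), distal on the left and promoter on the right (mean ± SD, 2 libraries; log axis above 0.3, linear below). CTCF stands apart among distal peaks (7.78% against 16.7%), and ETS, NRF1, CRE and YY1 among promoter peaks.

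The weak reproducible peaks added few gene starts to those already open. A coding gene was counted as gained where no stricter peak of either library lay within 1 kb of its starts and a weak reproducible peak of both libraries did. Of 21911 coding genes 334 were gained (1.52%), which is 3.78% of the 8833 genes without a stricter TSS peak. A further 508 such genes had a weak TSS peak in replicate 1 alone and 308 in replicate 2 alone, and 7637 had none. The mean signal of the gained peaks had a median of 0.353 and ran from 0.118 to 1.83.

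The strongest gained starts belonged to a mixed set of genes. Lingo3 (chromosome 10, 80832801 to 80844039), a leucine-rich repeat protein of the cell surface, had a signal of 2.22 in replicate 1 and 1.45 in replicate 2. Matk, a tyrosine kinase related to CSK, had 1.85 and 1.53, and Traf4, a TNF receptor-associated factor, 2.13 and 1.17. Rin1, a Ras effector that acts on RAB5, had 1.91 and 1.31. Each of these exceeded the stricter median of its library (1.40 and 0.961), though none was on the stricter list. Metrn, meteorin, a secreted factor of glia, had 1.73 and 1.40, Selenon, a selenoprotein of the endoplasmic reticulum, 1.86 and 1.13, and Gm17349 1.93 and 1.30. Myadml2 had 1.56 and 1.22 and E030018B13Rik 1.56 and 1.21. In these genes replicate 1 was the higher library, as at the median of all regions.

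Marker genes of the rarer cells appeared singly among the gained starts. In 7 lists of 20 genes for cerebellar cell types other than granule cells, 88 genes had no stricter TSS peak, and 7 of them were gained (7.95%), beside 3.78% of all such coding genes. These are few genes, and no test was made. The list of forebrain and midbrain neurons gave a like share of 7.69%, but this is 1 gene of 13. Hes5, a Notch target of astroglia (chromosome 4, 154960923 to 154962371), had the highest signal, 1.71 in replicate 1 and 1.18 in replicate 2. Its region lay inside the gene at 154961421 to 154961540, and the nearest annotated start, 197 bp away, was that of Gm20421, a processed transcript. Agt had 1.25 and 0.815. Foxc1, a forkhead factor of the meninges, had 0.671 and 0.386. The myelin genes Mog (chromosome 17, 37010743 to 37023398) and Mag (chromosome 7, 30899176 to 30914873) had 0.435 and 0.443, and 0.378 and 0.247. Sall1, a zinc finger factor of microglia, had 0.378 and 0.196. Replicate 1 was higher at 5 of these 6 genes, Mog being the exception.

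The lists differed in how much the weak peaks reached. A gene counted as stricter where either library had a stricter TSS peak, and in each of these lists some had it in 1 library alone. Among them were Cnp, Myrf and Olig1 of the oligodendrocyte list and C1qc and Irf8 of the microglia list. In the endothelial and mural list they were Mfsd2a, Kcnj8 and Tagln, and Vwf alone was stricter in both libraries. Of the oligodendrocyte list, 6 genes had a stricter TSS peak, 2 were gained, 1 (Nkx6-2, a homeobox factor of the lineage) had a weak peak in replicate 1 alone and 11 had none. Of the Bergmann glia and astrocyte list 13 were stricter and 2 gained. Aqp4, the water channel of astrocyte endfeet, had a weak peak in each library, but these shared no region. Of the microglia and macrophage list 3 were stricter, Sall1 was gained and 16 had no TSS peak in either list. In the endothelial and mural list 4 were stricter and none gained. Erg, Kdr and Vtn had a weak peak in replicate 1 alone and Abcc9, Flt1 and Tie1 in replicate 2 alone, so 6 vessel genes were seen once and never in both. In the Purkinje list 15 were stricter and none gained, and Car8 and Gad1, which makes GABA, had a weak peak in replicate 2 alone. Of the choroid plexus, ependyma and meninges list 5 were stricter and Foxc1 gained, while Ccdc153, Col1a2, Dcn and Slc6a13 had a weak peak in replicate 2 alone.

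Lists named for other organs and other brain regions were set beside these counts. Whether every gene on them is closed in cerebellar cells was not tested. Of 20 genes of other organs 4 were stricter and none of the 16 others was gained, but Ttn in replicate 1 and Krt5, Nphs1 and Vil1 in replicate 2 had a weak peak. Of the forebrain and midbrain list 7 were stricter and Tbr1, a T-box factor of glutamatergic neurons, was gained at 0.871 and 0.809. That is 1 of its 13 genes without a stricter TSS peak (7.69%), beside 7.95% in the 7 cerebellar lists. The 20 housekeeping genes were all stricter. The count of gained markers also depended on how a shared peak was defined. With overlap of 50% of both peaks, 3 of the 8 gained genes of all lists stayed, and with an FDR under 0.01 in both libraries 1 stayed. Sall1 was not gained with a TSS window of 500 bp or of 2 kb, and both oligodendrocyte genes were lost under either stricter definition.

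**Figure D5:**
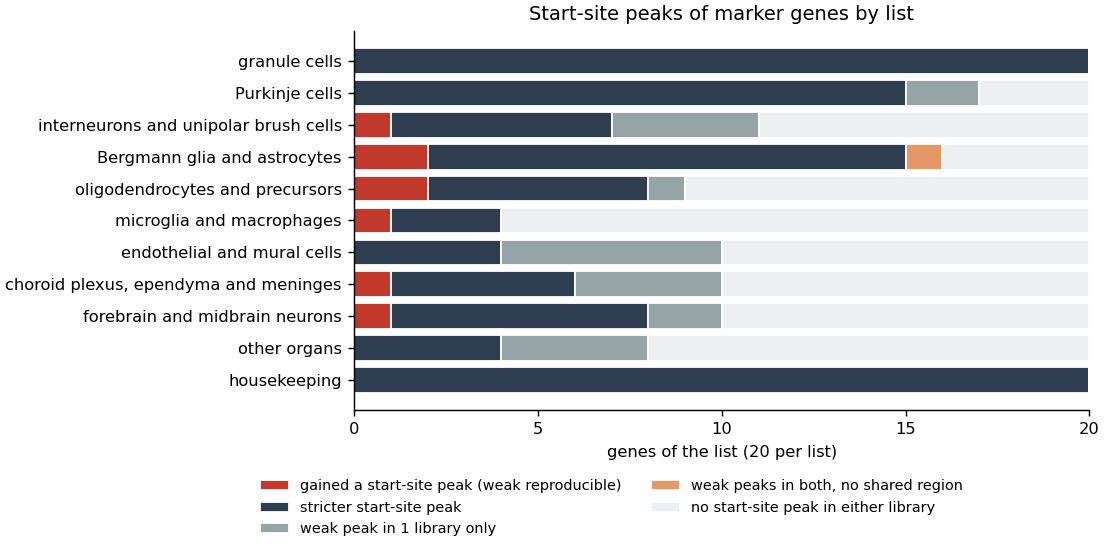
Genes of each list of 20 by the peaks within 1 kb of their starts, given as gained through a weak reproducible peak, stricter in either library, weak in 1 library only, weak in both without a shared region, or without a peak. Gained genes number 0 to 2 per list, and the granule cell and housekeeping lists are stricter throughout.

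Some coding genes had many distal weak reproducible regions within reach. Of 21911 coding genes 7155 (32.7%) had at least 1 within 50 kb of a start, a region counting for every gene in reach, and 92 genes had 5 or more. Nav2, a neuron navigator (chromosome 7, 48908716 to 49610090), had the most with 13, beside 14 stricter distal regions. Coro2b, a coronin, had 10 beside 25, and Rbfox3, the splicing factor known as NeuN, 9 beside 22. There were 8 each at Barhl2, a homeobox factor of granule cells, Atp2b2, a calcium pump, Bsn, the active zone protein bassoon, Cacna1c, a calcium channel subunit, and Il34, a ligand of the CSF1 receptor. The neighbours Gpt and Mfsd3 on chromosome 15 also had 8 each, within reach of the same stretch. These 10 genes were picked for their weak regions, and all had a stricter TSS peak in both libraries. Elsewhere weak regions stood with few stricter ones, as at Fgfr3 and Clic6, a chloride channel gene of the choroid plexus, with 2 weak and 0 stricter distal regions each.

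Near marker genes, weak regions made up much the same share of all distal regions as elsewhere. Over all coding genes it was 20.7% (4833 weak and 18521 stricter regions). It was 22.6% for granule cell genes (36 and 123), 23.4% for Bergmann glia and astrocytes (15 and 49), 25% for choroid plexus, ependyma and meninges (12 and 36), 19.2% for vessels (5 and 21), 18% for Purkinje cells (9 and 41), 15.7% for oligodendrocytes (8 and 43), 14.7% for interneurons and unipolar brush cells (5 and 29) and 9.76% for microglia (4 and 37). The interval of every one of these lists, that of microglia being 3.86% to 22.5%, held 20.7%. Barhl2 and Tiam1 led the granule list with 8 and 6 regions, Lhx1 the Purkinje list with 4, and Rarres2, chemerin, the choroid and meninges list with 4. Cspg4 and Mobp, genes of oligodendrocyte precursors and myelin without a stricter TSS peak, had 2 each, as had Fgfr3, an astroglial receptor gene without one. In the microglia and macrophage list P2ry12, Spi1, Fcer1g and Mrc1 had 1 each.

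Single regions showed how far the class reached. The highest signal was in an intron of Nfix (chromosome 8, 84789939 to 84790120), a nuclear factor I gene, with 2.83 in replicate 1 and 1.88 in replicate 2. The regions next in height lay near Gm9917 (2.58 and 1.43), Tesc (2.23 and 1.73), Mapk8ip1 (2.03 and 1.92) and Ankrd13b (2.36 and 1.59). The widest, 1235 bp at the start of Ppp1r9b, spinophilin (chromosome 11, 94992001 to 94993235), had 20 footprints in replicate 1 and 1 in replicate 2. Grin3a, Narfl, Fam19a5 and Tunar starts held the next widest, of 822 to 980 bp, all promoter regions. Tunar (chromosome 12, 105336250 to 105337071) also had the most footprints of both libraries, 9, followed by Adgrl1 with 8, Ptk7, a receptor-like kinase of planar polarity, with 7, and Gm10353 and Lrrc32 with 6. Tunar, Adgrl1 and Ptk7 had 12, 8 and 9 footprints in replicate 1 and 15, 10 and 9 in replicate 2. They were picked for footprints of both libraries and Ppp1r9b for its width, so nothing is read from the contrast with Ppp1r9b.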

How the data were processed

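DNase-seq of mouse cerebellum was used as deposited, on mm10 per the labels. Peaks, FDR tables and footprints were made per library, per the deposited description. No label or header used here names the aligner, the callers, versions or read numbers. The authors' signal per peak is a coverage measure of unstated scale, used to rank and describe peaks within a library. The deposited FDR of the cut rate (a q-value, intervals under 0.05 only) gave each peak its lowest value, and footprints carry a constant 0.01. The mice carry CAST alleles, which no file separates from B6.

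Overlap meant 1 bp. Positions were compared with GENCODE mouse release M21 and the soft-masked RefSeq copy of GRCm38, from which sequences were read. Of 12 regions chosen for printing, 7 are shown, and 4 over exons are not. A further sequence and the values of 1 gained gene are not reported here. Tools were Python 3.11.15, numpy 2.4.6, pandas 2.3.3, scipy 1.17.1, pysam 0.24.0, bedtools 2.31.1 and matplotlib 3.10.9. Scripts were tested on simulated intervals. Members and lists were chosen with earlier results of these data known. Named genes were, per list, up to 4 gained and up to 2 with the most distal regions, and genome-wide the 10 gained of highest signal and 10 with most distal regions; named regions were the 5 highest, widest and richest in footprints. Intervals are Wilson 95% intervals for counting error alone. Alternatives were 50% overlap, an FDR under 0.01, distance to stricter peaks, the members of each library alone, other windows and equal signal.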

Additional observations from a re-analysis of the deposited data

How the results depend on the processing

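The number of weak reproducible peaks, 9633 on average, fell to 5586.5 with overlap over 50% of both peaks and to 3571.5 with an FDR under 0.01 in both libraries. Genes gained fell to 195 and 146 under the same settings, against 334. The promoter share, 26.1%, was 22.0% with 50% overlap, 27% with the FDR limit, 19.2% without peaks within 500 bp of a stricter peak, 15.5% and 38.2% with TSS windows of 500 bp and 2 kb, and 27.7% among peaks of 50 to 199 signal steps, a setting chosen after seeing the data. The repeat-masked share, 5.75%, was 4.76% with the FDR limit. The share with a footprint, 68.6%, was 76.1% with the FDR limit and 82.3% at 50 to 199 steps. Median GC, 54.3%, was 52.5% over 300 bp. Gained markers over all lists, 8, were 3 with 50% overlap, 1 with the FDR limit and 7 with either TSS window. They were 8 without peaks within 500 bp of a stricter peak, and 8 with the members of either library alone. With the members of 1 library alone, peaks ran from 9631 to 9635, the promoter share from 25.8% to 26.3% and the repeat-masked share from 5.42% to 6.08%. Median signal ran from 0.417 to 0.528, the footprint share from 64.7% to 72.4%, GC from 54% to 54.7% and genes gained from 336 to 338. These members were still chosen with the peak lists of both libraries. Their close counts thus follow from the rule and do not show what leaving out a library would do. No paired analysis was possible because the 2 libraries form 1 group. Read depth is unknown, and 74 and 66 steps at the median peak limit single weak sites.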
